A study of Mus musculus with 10 samples.

Results

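Notch receptors and the proteins that modify or relay their signal were followed in mouse B lineage cells through 10 genes: the receptors Notch1, Notch2, Notch3 and Notch4, the Fringe glycosyltransferases Lfng, Mfng and Rfng, the protease Adam10, the ubiquitin ligase Mib1 and the DNA-binding partner Rbpj. They were chosen by name, out of 30205 genes to which the deposited transcripts were summed, and all 10 passed the filter on low counts. RNA had been sequenced from sorted cells of C57BL/6 mice in 10 libraries, 2 in each of 5 groups. Lymphoma libraries (lymphoma tissue) and doubly activated libraries carried Rosa-NIKdeltaT3flSTOP, Rosa-Notch2ICN and CD19Cre. Notch-labelled libraries carried Rosa-Notch2ICN and CD19Cre, NF-kB-activated libraries carried Rosa-NIKdeltaT3flSTOP and CD19Cre, and control libraries were wild type, with no Cre. All but the lymphoma cells are labelled lymph node and pre-malignant: doubly activated, NF-kB-activated and control cells as marginal zone precursors, Notch-labelled cells as marginal zone B cells, so that for these the allele and the labelled cell type differ from control together. The names of the deposited Notch-labelled tables end like those of the precursor groups. Labels and table names thus disagree on this cell type, and the labels were followed. CD19Cre is active in the B lineage, the NIK allele (NIK is encoded by Map3k14) drives NF-kB signalling, and the Notch2 allele encodes only the intracellular part of the receptor. The labels give neither age nor sex and do not say that each library had its own animal, so the spread behind every p-value here may be technical.

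As background, Notch receptors are single-pass membrane proteins. A ligand on a neighbouring cell, Delta-like or Jagged, pulls on the receptor once the ligand has been ubiquitinated by Mib1 in the cell that sends the signal. ADAM10 then cuts the receptor outside the membrane and gamma-secretase inside it, and the freed intracellular part joins RBPJ on DNA to switch on genes such as those of the Hes and Hey families. Fringe enzymes add sugars to the extracellular repeats of the receptor and so alter its response to Delta-like and Jagged ligands. In mice, marginal zone B cells depend on Notch2 and its ligand Dll1, on Rbpj and on Adam10, and Lfng and Mfng act together in their formation.

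Depth was 16380889 to 23102081 estimated counts per library. Levels are CPM, a gene's counts relative to its library's total after TMM, edgeR's trimmed mean scaling, and a difference between groups is a log2 fold change ± SE with its adjusted p over 15583 genes. In pairs of libraries, log2(CPM + 1) correlated at r = 0.982 to 0.995 within groups and 0.934 to 0.968 between doubly activated, NF-kB-activated and control libraries, over 10376 genes. The Notch-labelled libraries stood apart from all others (r = 0.722 to 0.790), as did lymphoma libraries from those 3 groups (0.803 to 0.831). All 7 B lineage markers were present at 1 CPM or more in every group, at a summed 5165 and 4983 CPM in lymphoma, 7584 and 7435 in doubly activated, 3044 and 2835 in Notch-labelled, 7309 and 7631 in NF-kB-activated and 9082 and 8951 CPM in control libraries. The marginal zone markers went different ways. All 6 reached 1 CPM in every group, with a sum of 1651 and 1500.4 CPM in lymphoma, 4909 and 5217 CPM in doubly activated, 1688 and 1618 CPM in Notch-labelled, 3665 and 3581 CPM in NF-kB-activated and 3981 and 2821 CPM in control libraries. Of these, Cr2, encoding the complement receptor CD21, was at 28.5 and 23.3 CPM in lymphoma and 111 and 109.9 CPM in Notch-labelled libraries, against 1874 to 2940 CPM in the other 3 groups. The means of the other 5 were above control in Notch-labelled libraries, at 237 against 152 CPM for Cd1d1, 141 against 30.4 CPM for Cd9, 123 against 100.4 CPM for S1pr3, 51.3 against 31.5 CPM for Tbc1d9 and 991 against 699.7 CPM for Dtx1 (n = 2 each). All 6 fibroblast markers reached 1 CPM in Notch-labelled libraries, with a sum of 639 and 864 CPM, against 1.27 to 3.10 CPM in the other 8 libraries, where Dcn was at 0 throughout. The 7 neutrophil markers summed to 10.8 and 9.43 CPM in lymphoma, 5.18 and 0.131 CPM in doubly activated, 56.3 and 53.6 CPM in Notch-labelled, 405 and 121 CPM in NF-kB-activated and 0.184 and 16.1 CPM in control libraries. They were highest in NF-kB-activated libraries, and their part in the results for these cells was not tested.

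Windows of genomic sequence just before 3 of the genes are shown because the results below turn on these genes and because RBPJ, the factor whose motif is marked, is itself one of the 10 gene products. They were taken from RefSeq (build GRCm38.p6), read 5′ to 3′ on the strand of the gene, and stop before the first base that GENCODE annotates to the gene. Capitals mark TGGGAA, the core of the RBPJ binding motif, on either strand, and the longer CGTGGGAA. Notch2 is on the + strand at chr3:98013288-98013526, Lfng on the + strand at chr5:140607091-140607319 and Notch3 on the - strand at chr17:32166891-32167140.
Notch2: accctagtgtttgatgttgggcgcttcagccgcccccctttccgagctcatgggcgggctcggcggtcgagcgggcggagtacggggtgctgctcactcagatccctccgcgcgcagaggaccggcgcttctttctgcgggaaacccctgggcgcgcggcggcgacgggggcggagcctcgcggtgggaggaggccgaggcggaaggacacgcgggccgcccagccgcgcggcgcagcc
Notch3: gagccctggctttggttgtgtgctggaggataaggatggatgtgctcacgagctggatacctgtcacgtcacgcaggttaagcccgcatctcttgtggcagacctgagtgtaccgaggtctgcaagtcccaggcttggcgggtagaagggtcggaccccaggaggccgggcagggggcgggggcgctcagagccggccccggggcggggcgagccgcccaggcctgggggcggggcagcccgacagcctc
Lfng: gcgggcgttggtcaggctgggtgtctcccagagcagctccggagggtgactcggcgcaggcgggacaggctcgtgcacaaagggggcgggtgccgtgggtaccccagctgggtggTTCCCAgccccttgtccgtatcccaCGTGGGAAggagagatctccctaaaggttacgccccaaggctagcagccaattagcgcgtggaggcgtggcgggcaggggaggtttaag
The Lfng window held TGGGAA at 2 places, 1 of them within CGTGGGAA, and those of Notch2 and Notch3 held neither motif. Among 32851 RefSeq windows of 250 bases before a start, 21.6% held TGGGAA and 0.636% held CGTGGGAA on either strand, where every CGTGGGAA also counts as a TGGGAA. Both Rbpj windows held TGGGAA, at 2 places in the first and at 1 in the second, and these windows overlap. Neither lies just before the start of the Rbpj transcript ENSMUST00000087360 described below. The windows of Notch1, Notch4, Rfng and Adam10 held none. These are matches of letters, not sites of binding.

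Of the 10 genes, 4 were higher and 4 lower in lymphoma than in doubly activated cells, where 26.1% of all genes tested were called higher and 25.2% lower, 51.3% in all. Against Notch-labelled cells, 2 were higher and 3 lower in doubly activated cells (30.9% of all genes higher and 33.2% lower, 64.2% in all). Against NF-kB-activated cells none passed the adjusted threshold, in edgeR or in DESeq2 (6.62% of all genes higher and 7.28% lower by edgeR, 13.9% in all). Against control, doubly activated cells had none of the 10 higher and 2 lower, where 10.5% of all genes were higher and 9.30% lower, 19.8% in all. Notch-labelled cells had 4 higher and 4 lower than control, where 34.2% of all genes were higher and 29.5% lower, 63.7% in all. NF-kB-activated cells had 1 higher and 1 lower than control, where 8.72% of all genes were higher and 6.60% lower, 15.3% in all. The median log2 fold change of the 10 genes was -0.11 in lymphoma against doubly activated cells and -0.19, -0.05 and 0.07 in doubly activated against Notch-labelled, NF-kB-activated and control cells, and it was 0.25 and -0.12 in Notch-labelled and NF-kB-activated cells against control. Over all genes tested it lay between -0.02 and 0.07 in these 6 comparisons. Read against these shares, the counts show nothing particular to the 10 genes, and the values below are of single genes. Doubly activated cells stand in 4 of the comparisons and control in 3, so the comparisons are not independent.

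**Figure D1:**
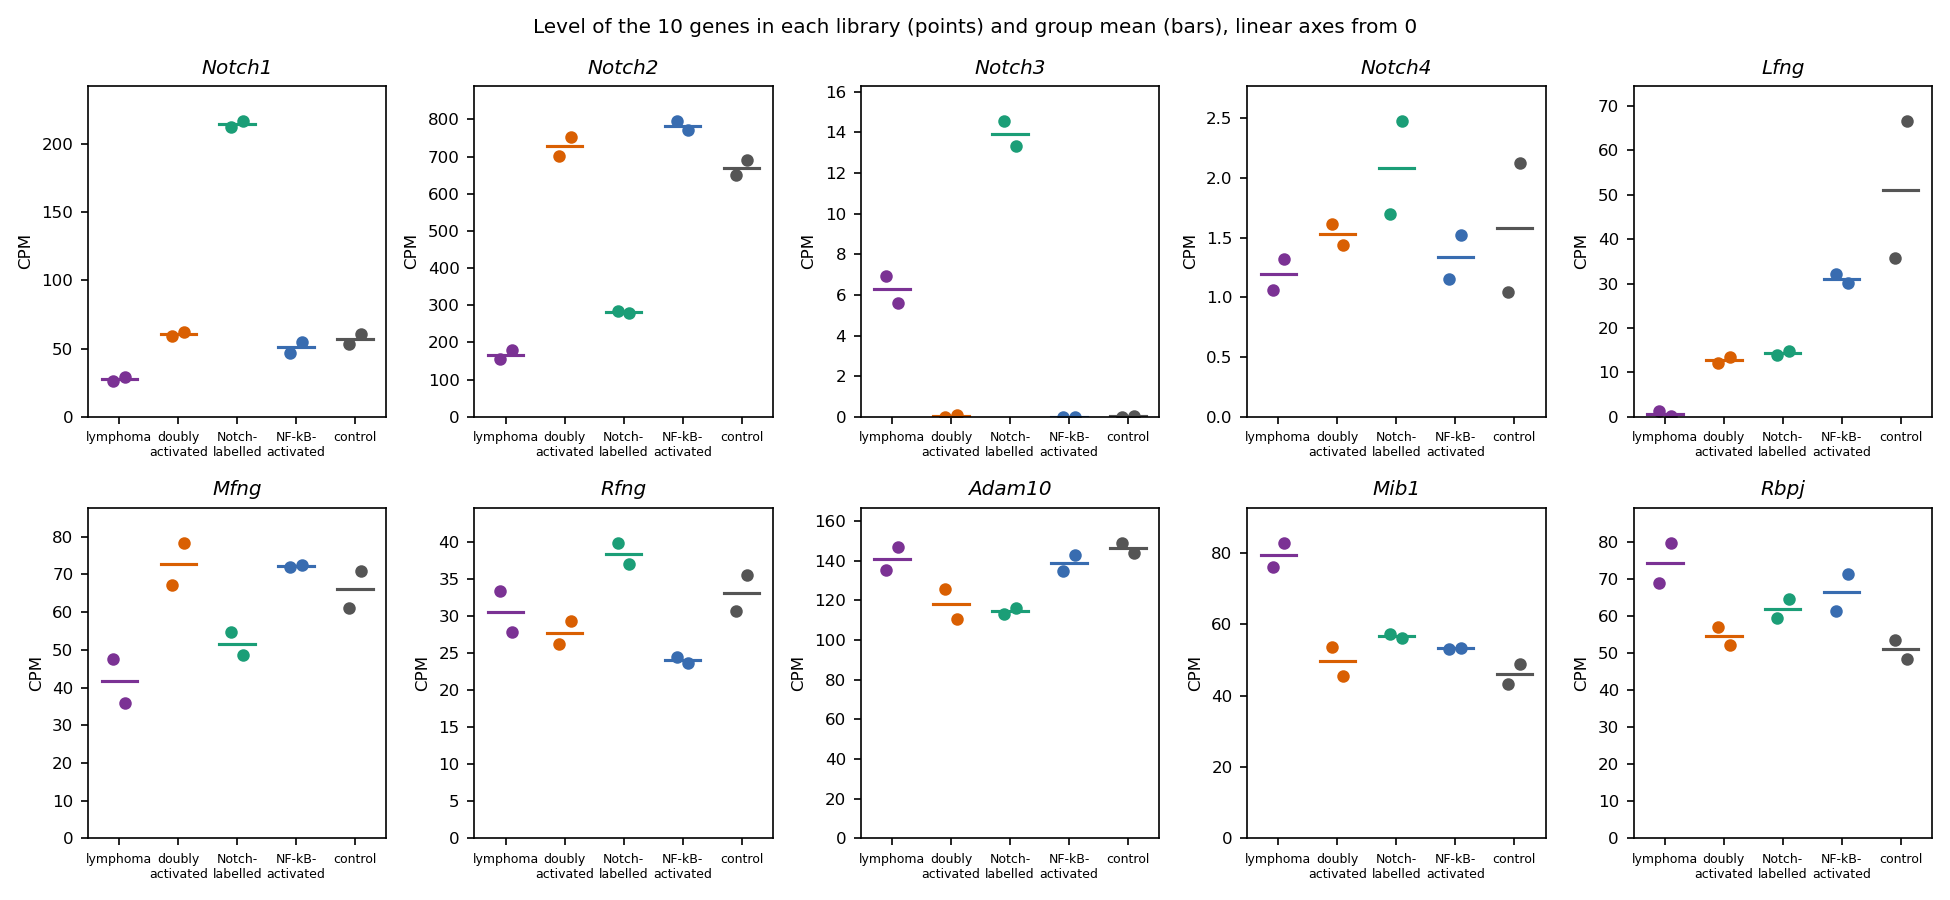
CPM (y axis, linear, from 0) of the 10 genes in each of the 10 libraries, with 1 panel a gene and the 5 groups on the x axis; points are the 2 libraries of a group and bars their mean. Notch2 was lowest in lymphoma and Notch-labelled libraries, Notch1 was highest in Notch-labelled libraries at 212 and 217 CPM, and Notch3 was above 1 CPM only in Notch-labelled and lymphoma libraries.

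Notch2, the receptor on which marginal zone B cells depend, is at chr3:98013527-98150361 on the + strand (GENCODE M21, GRCm38). The lymphoma libraries had 155 and 178 CPM, the doubly activated 702 and 753 CPM, the Notch-labelled 284 and 278 CPM, the NF-kB-activated 795 and 772 CPM and the control libraries 652 and 689.7 CPM. Both lymphoma libraries lay below all others and both Notch-labelled libraries below the remaining 6. Of the 3 groups with the Rosa-Notch2ICN allele, doubly activated cells overlapped with neither of the others. Notch2 fell in lymphoma against doubly activated cells (-2.13 ± 0.09, adjusted p = 2.0e-09) and in Notch-labelled cells against control (-1.25 ± 0.08, adjusted p = 9.6e-08), and was higher in doubly activated than in Notch-labelled cells (1.37 ± 0.09, adjusted p = 4.6e-08). In doubly activated cells it did not differ beyond the threshold from control (0.12, adjusted p = 0.38) or NF-kB-activated cells (-0.11, adjusted p = 0.45), nor in NF-kB-activated cells from control (0.22 ± 0.08, adjusted p = 0.097), although the last passed with both lymphoma libraries left out of the fit (adjusted p = 0.0479) or with either of them left out (adjusted p = 0.0495 for both).

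The files list 1 Notch2 transcript, ENSMUST00000079812, of 34 exons, so its counts are those of the gene, and reads from the allele, which shares the intracellular exons, cannot be told apart from those of the endogenous gene. In a fit over 44354 transcripts, the Notch2 transcript fell in lymphoma against doubly activated cells (-2.06 ± 0.08, adjusted p = 2.6e-05) and in Notch-labelled cells against control (-1.10 ± 0.08, adjusted p = 0.00015), and rose in doubly activated against Notch-labelled cells (1.20 ± 0.08, adjusted p = 0.00012). It passed no threshold between doubly activated and NF-kB-activated or control cells.

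Notch1, the receptor on which T cell fate depends, is at chr2:26457903-26516663 on the - strand. It had 25.9 and 29.0 CPM in lymphoma, 59.0 and 62.5 CPM in doubly activated, 212 and 217 CPM in Notch-labelled, 46.7 and 55.2 CPM in NF-kB-activated and 53.4 and 61.0 CPM in control libraries. Both Notch-labelled libraries lay above all others and both lymphoma libraries below all others. Against control it rose in Notch-labelled cells (1.90 ± 0.10, adjusted p = 1.3e-08). It was lower in doubly activated than in Notch-labelled cells (-1.82 ± 0.10, adjusted p = 2.0e-08) and lower in lymphoma than in doubly activated cells (-1.15 ± 0.11, adjusted p = 2.0e-06). On the authors' TPM with limma, the lymphoma difference (-0.73, adjusted p = 0.31) and the doubly activated to Notch-labelled difference (-1.24, adjusted p = 0.077) no longer passed. The transcript ENSMUST00000028288 held 93.5% to 98.8% of the gene's estimated counts in the 10 libraries. In the edgeR fit over transcripts it was lower in lymphoma than in doubly activated cells (-1.12 ± 0.11, adjusted p = 0.00086). There it was also lower in doubly activated than in Notch-labelled cells (-2.02 ± 0.11, adjusted p = 8.6e-05).

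Notch3, a receptor of mural cells and of some T cell states, is at chr17:32120820-32166852 on the - strand. It had 150 and 115 counts (6.94 and 5.62 CPM) in lymphoma, 0 and 1 in doubly activated, 291 and 270 (14.5 and 13.4 CPM) in Notch-labelled, 0 and 0 in NF-kB-activated and 0 and 1 in control libraries. The floor of 3 counts corresponds to 0.139 to 0.196 CPM in a library. The ratio of lymphoma to doubly activated libraries was 209 (95% exact interval of the counts 37.3 to 8300.0) and that of Notch-labelled to control libraries was 483 (86.3 to 19114), counting error only, with edgeR's adjusted p at 2.1e-06 and 3.1e-07. Notch3 was also lower in doubly activated than in Notch-labelled cells (adjusted p = 3.2e-07). No ratio is given between doubly activated, NF-kB-activated and control cells, which were at or below the floor.

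Among markers of other cell types, those of mural and T cells had higher sums in libraries with high Notch3. In lymphoma libraries these sums rested mostly on single genes, Pdgfrb and Cd8b1. In Notch-labelled libraries Notch1 was high too. In Notch-labelled libraries the 6 mural markers summed to 24.3 and 30.9 CPM, and 3 of the 6 reached 1 CPM. In lymphoma libraries they summed to 2.54 and 2.39 CPM, with 1 of 6 at 1 CPM or more, Pdgfrb at 2.17 and 2.05 CPM, and Cspg4 and Des at 0. In the other 3 groups they summed to 0.314 to 1.26 CPM, with none of the 6 at 1 CPM. The 7 T cell markers summed to 192 and 172 CPM in lymphoma and to 66.0 and 65.6 CPM in Notch-labelled libraries, against 11.6 to 30.1 CPM in the other groups. Cd8b1 was the largest, at 181 and 162 CPM in lymphoma. The T cell receptor component Cd3e was at 0.370 and 0.928 CPM in lymphoma, 6.45 and 5.09 CPM in Notch-labelled and 1.37 to 3.59 CPM in the other 6 libraries. In lymphoma libraries 4 of the 7 T cell markers reached 1 CPM, against 7 of 7 in every other group. There Cd3d, Cd3e, Cd3g and Cd4 had their lowest mean of the 5 groups, so the sum there was mostly Cd8b1. Notch1 was at its lowest in these libraries. The 7 endothelial markers summed to 15.6 and 17.9 CPM in lymphoma, with 3 of 7 at 1 CPM or more, against 3.77 to 11.2 CPM elsewhere. Most of the lymphoma sum was Cdh5, at 11.2 and 12.7 CPM against 1.78 to 4.45 CPM elsewhere. Tek was at 0 in lymphoma and control libraries, and Emcn was at 0 in all libraries. The part of these cells in Notch1 and Notch3 was not tested, and in bulk RNA fewer cells of a type and less RNA per cell cannot be told apart.

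**Figure D2:**
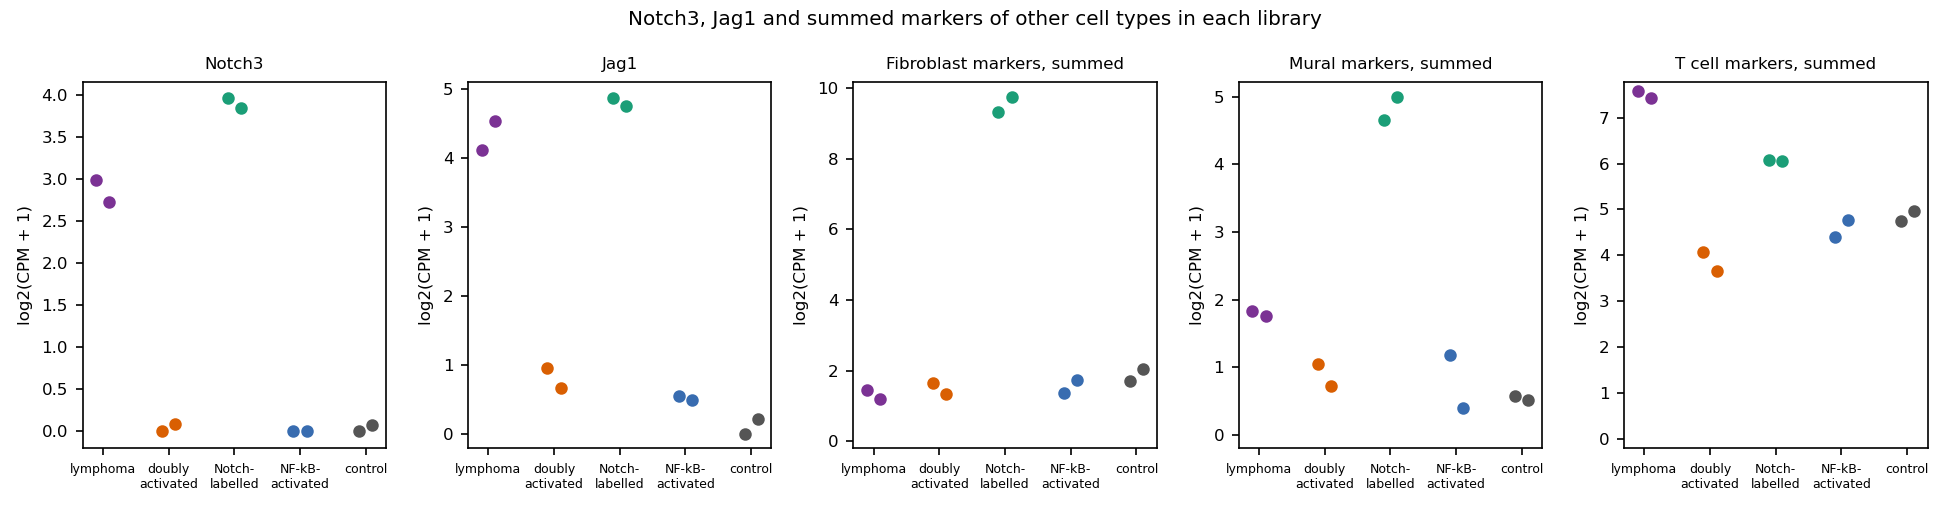
Log2(CPM + 1) (y axis) of Notch3, Jag1 and the summed fibroblast, mural and T cell markers in each library; points are the 2 libraries of each group. In Notch-labelled libraries all 5 quantities were high. In lymphoma libraries Notch3, Jag1 and the T cell sum, which was mostly Cd8b1, were high while the fibroblast sum was 1.71 and 1.27 CPM.

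Notch4 was barely measured, at 1.05 to 2.47 CPM over all 10 libraries, and no comparison of it passed the threshold in edgeR. On the authors' TPM with limma it was higher in Notch-labelled than in control cells (0.98, adjusted p = 0.0193), lower in doubly activated than in Notch-labelled cells (-0.98, adjusted p = 0.0189) and negative in the difference of differences described below (-1.27, adjusted p = 0.0337). Set per transcript length, on TPM of protein-coding transcripts of at least 1500 bases, Notch2 made up 81.2% ± 1.08 of receptor transcripts in lymphoma, 91.6% ± 0.27 in doubly activated, 52.5% ± 0.73 in Notch-labelled, 93.2% ± 0.94 in NF-kB-activated and 91.3% ± 0.49 in control libraries (SD, n = 2 each). The share of Notch1 was 14.0%, 8.23%, 43.7%, 6.57% and 8.44% in the same 5 groups. Receptor transcripts summed to 20.1 and 24.8 TPM in lymphoma, 96.1 and 98.0 TPM in doubly activated, 73.5 and 74.5 TPM in Notch-labelled, 112 and 113 TPM in NF-kB-activated and 93.6 and 100.4 TPM in control libraries. Their TPM is relative to all other transcripts of a library, so these levels are shares of its RNA.

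**Figure D3:**
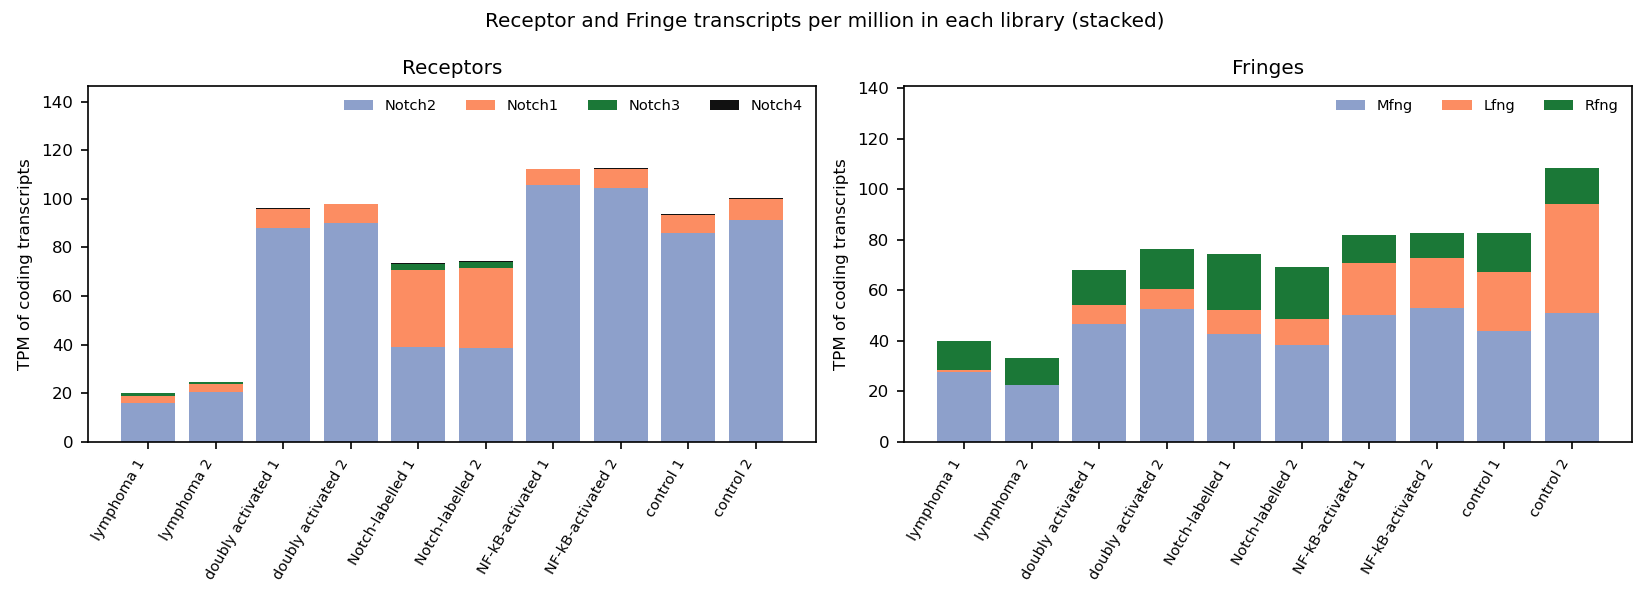
TPM of coding transcripts (y axis, linear, from 0) in each library, stacked by gene, for the 4 receptors and the 3 Fringes. Receptor sums were 20.1 and 24.8 TPM in lymphoma, below the other 8 libraries, and Notch2 was the tallest part of the receptor bar in all 10 libraries.

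Among the Fringe genes, Lfng fell in lymphoma to a few counts, Mfng was the largest of the 3 per length in every library, and Rfng did not pass the threshold in lymphoma. Lfng (chr5:140607320-140615545, + strand) had 1.25 and 0.147 CPM in lymphoma (27 and 3 counts), 12.1 and 13.5 CPM in doubly activated, 13.9 and 14.8 CPM in Notch-labelled, 32.1 and 30.1 CPM in NF-kB-activated and 35.9 and 66.5 CPM in control libraries. The control libraries lay far apart (51.2 ± 21.7 CPM, SD, n = 2), and both lymphoma libraries lay below all others.
Lfng was lower in lymphoma than in doubly activated cells (-4.15 ± 0.59, adjusted p = 0.00090), at -6.38 without lymphoma replicate 1 and -3.35 without lymphoma replicate 2. Against control it was lower in doubly activated cells (-2.01 ± 0.40, adjusted p = 0.014) and in Notch-labelled cells (-1.84 ± 0.39, adjusted p = 0.0051), and its value in NF-kB-activated cells was -0.72 ± 0.38 (adjusted p = 0.28). The call in doubly activated cells was lost without doubly activated replicate 1 (adjusted p = 0.0924) or replicate 2 (0.100). Against NF-kB-activated cells, doubly activated cells had -1.28 ± 0.40 (adjusted p = 0.083), which passed with only these 2 groups fitted (adjusted p = 0.00040) and with both lymphoma libraries left out (0.0207), and also without either control library (0.0186 and 0.0227) or either lymphoma library (0.0193 and 0.0192).

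Mfng (chr15:78755882-78773475, - strand) had 47.6 and 35.9 CPM in lymphoma, 67.1 and 78.4 CPM in doubly activated, 54.7 and 48.6 CPM in Notch-labelled, 71.9 and 72.5 CPM in NF-kB-activated and 61.2 and 70.9 CPM in control libraries. Both lymphoma libraries were below all others. It was lower in lymphoma than in doubly activated cells (-0.80 ± 0.13, adjusted p = 0.00036) and higher in doubly activated than in Notch-labelled cells (0.49 ± 0.13, adjusted p = 0.0064), a call lost without doubly activated replicate 2 (adjusted p = 0.0604) or Notch-labelled replicate 2 (0.0594). The fall in Notch-labelled cells against control (-0.36 ± 0.13, adjusted p = 0.034) was lost without control replicate 2 (0.151) or Notch-labelled replicate 2 (0.195), with DESeq2 (0.0686) and with scaling by library size alone (0.100).

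Rfng (chr11:120780746-120784207, - strand) ranged from 23.6 to 39.8 CPM over the 10 libraries, with the NF-kB-activated libraries lowest at 24.4 and 23.6 CPM and the Notch-labelled highest at 39.8 and 36.9 CPM. In Notch-labelled cells against control it did not pass (0.21 ± 0.12, adjusted p = 0.15). It did so there in edgeR with library size alone (0.32, adjusted p = 0.031) and on TPM with limma (0.29, adjusted p = 0.045). It was lower in doubly activated than in Notch-labelled cells (-0.47 ± 0.12, adjusted p = 0.0050), a call lost without doubly activated replicate 1 (0.0744). In NF-kB-activated cells it was lower than in control (-0.46 ± 0.12, adjusted p = 0.025), and this call was lost without control replicate 2 (0.144), without either NF-kB-activated library (0.106 and 0.145) and with only the 2 groups fitted (0.0546). Summed over the 3 genes per length, Fringe transcripts were at 36.6 TPM in lymphoma, 72.2 TPM in doubly activated, 71.8 TPM in Notch-labelled, 82.3 TPM in NF-kB-activated and 95.6 TPM in control libraries. Lfng made up 0.926% of them in lymphoma, 10.6% in doubly activated, 13.6% in Notch-labelled, 24.8% in NF-kB-activated and 34.0% in control libraries.

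Adam10 (chr9:70678997-70780229, + strand), the protease that makes the ligand-dependent cut, lay between 111 and 149 CPM by gene over the 10 libraries. It was higher in lymphoma than in doubly activated cells (0.26 ± 0.08, adjusted p = 0.022), a call lost without doubly activated replicate 2 (0.202) or lymphoma replicate 2 (0.130) and with only the 2 groups fitted (0.0559), and on the authors' TPM with limma the direction turned (-0.16, adjusted p = 0.393). Against control it was lower in Notch-labelled cells (-0.35 ± 0.08, adjusted p = 0.0027) and in doubly activated cells (-0.31 ± 0.08, adjusted p = 0.021), the second call being lost without control replicate 1 (0.0634) or doubly activated replicate 2 (0.214) and with only the 2 groups fitted (0.0700). On TPM with limma neither passed, at -0.053 (adjusted p = 0.760) in Notch-labelled and -0.27 (adjusted p = 0.253) in doubly activated cells against control. Part of the gene's counts went to ENSMUST00000140205, a transcript annotated as a target of nonsense-mediated decay, which held 36.0% and 32.5% of them in Notch-labelled libraries and at most 20.6% in the others, where 1 lymphoma library had 0%. In the edgeR fit over transcripts the main Adam10 transcript was lower in Notch-labelled cells than in control (-0.62 ± 0.14, adjusted p = 0.018). It did not pass there in doubly activated against control cells (-0.37 ± 0.14, adjusted p = 0.30). Coding transcripts of at least 1500 bases averaged 23.7 TPM in Notch-labelled, 28.2 TPM in doubly activated and 38.7 TPM in control libraries. The split among transcripts is an estimate whose uncertainty is not analysed here.

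Mib1 (chr18:10725548-10818704, + strand), which ubiquitinates ligands in the signal-sending cell, had 76.2 and 82.9 CPM in lymphoma, 53.8 and 45.5 CPM in doubly activated, 57.3 and 56.2 CPM in Notch-labelled, 53.1 and 53.5 CPM in NF-kB-activated and 43.4 and 48.8 CPM in control libraries. Both lymphoma libraries were above all others. It rose in lymphoma against doubly activated cells (0.68 ± 0.10, adjusted p = 0.00010), a call lost on TPM with limma (0.51, adjusted p = 0.0620). In doubly activated against Notch-labelled cells it did not pass (-0.19 ± 0.10, adjusted p = 0.11). It did so there on TPM with limma (-0.79, adjusted p = 0.0075) and in edgeR with library size alone (-0.37, adjusted p = 0.0087). In Notch-labelled cells it was higher than in control (0.30 ± 0.10, adjusted p = 0.019), a call lost without control replicate 1 (0.138), either Notch-labelled library (0.0913 and 0.0658) or either NF-kB-activated library (0.0508 and 0.0511).

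Rbpj (chr5:53466152-53657362, + strand), the factor that binds DNA with the intracellular receptor, had 69.0 and 79.8 CPM in lymphoma, 57.2 and 52.3 CPM in doubly activated, 59.5 and 64.6 CPM in Notch-labelled, 61.5 and 71.5 CPM in NF-kB-activated and 53.6 and 48.6 CPM in control libraries. It was higher in lymphoma than in doubly activated cells (0.44 ± 0.11, adjusted p = 0.0041), a call lost on TPM with limma (0.26, adjusted p = 0.187). In NF-kB-activated cells it was higher than in control (0.38 ± 0.11, adjusted p = 0.031), a call lost without control replicate 2 (0.128) or NF-kB-activated replicate 2 (0.248), with only the 2 groups fitted (0.0662) and on TPM with limma (0.170). In Notch-labelled cells it was higher than in control (0.28 ± 0.11, adjusted p = 0.037), a call lost without control replicate 2 (0.252), doubly activated replicate 1 (0.0714), either NF-kB-activated library (0.0585 and 0.0596) or either Notch-labelled library (0.0575 and 0.202), with only the 2 groups fitted (0.0609) and on TPM with limma (0.0900). Its processed pseudogene Rbpj-ps3, which shares sequence with it, was given 228 and 268 counts in Notch-labelled libraries and 16 to 92 in the others. With both summed, Rbpj was lower in doubly activated than in Notch-labelled cells (-0.32, adjusted p = 0.013), where Rbpj alone had -0.18 ± 0.11 (adjusted p = 0.16). Scaled by library size alone, Rbpj without the pseudogene also passed there in edgeR (-0.35, adjusted p = 0.016).

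**Figure D4:**
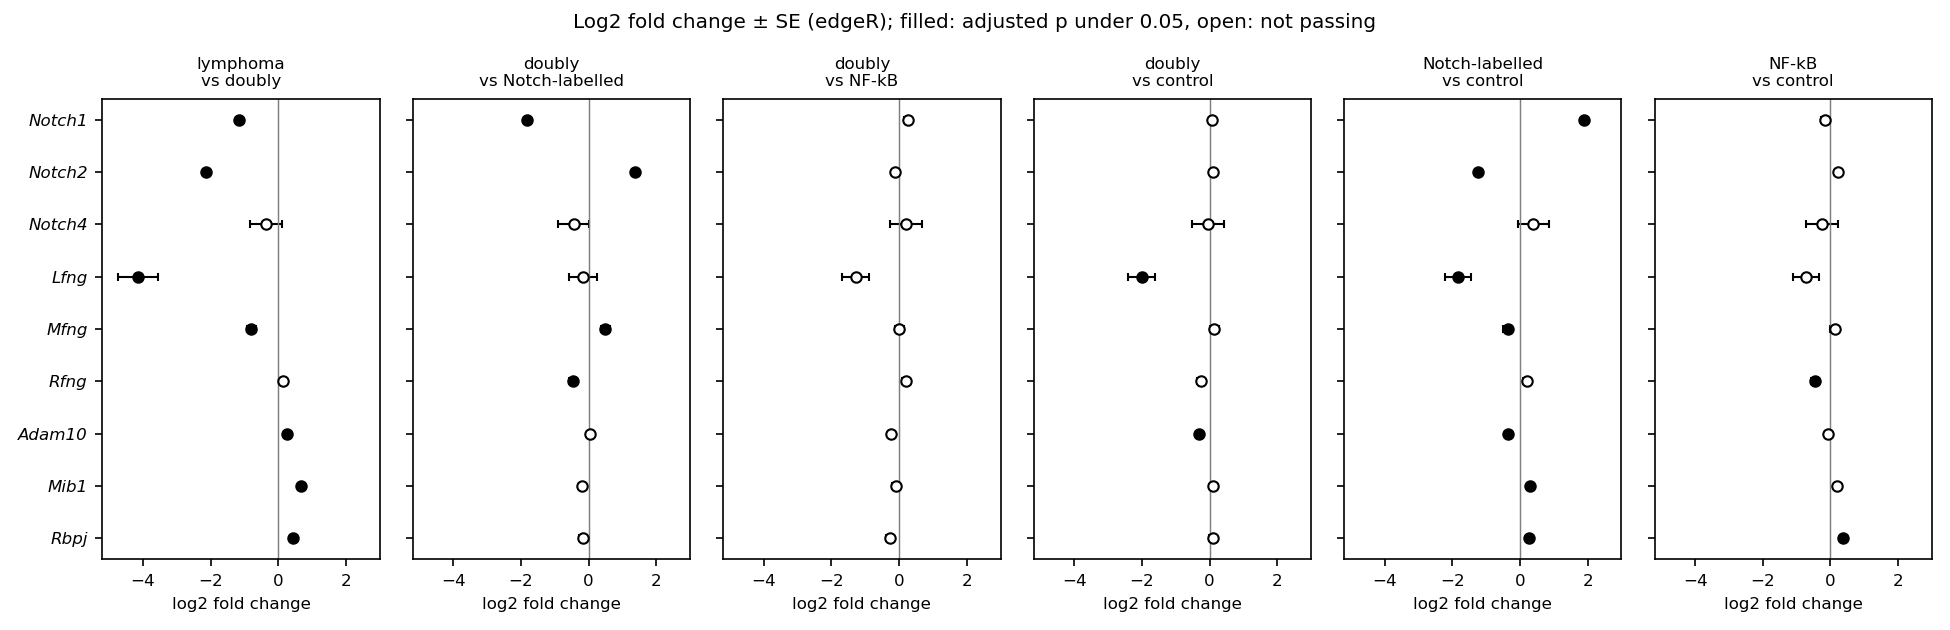
Log2 fold change ± SE from edgeR (x axis) of 9 of the 10 genes in the 6 comparisons, each panel being the first named group over the other; filled points have adjusted p under 0.05, open points do not. Notch3 is left out because some groups held 0 or 1 counts. Notch1 and Notch2 changed in opposite directions in the panel of Notch-labelled against control cells, and Lfng reached -4.15 in lymphoma against doubly activated cells.

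By transcript, lymphoma libraries differed from the rest in Rbpj. The transcript ENSMUST00000087360, whose start at chr5 position 53555834 is upstream of the other 2 listed transcripts (53590214 and 53590471), had 333 and 139 estimated counts in lymphoma and between 0 and 0.829 in each of the other 8 libraries. It held 22.3% and 8.51% of the gene's counts in lymphoma, while the main transcript, ENSMUST00000113865, held 72.1% and 80.8%. Rounded, the estimates of the upstream-start transcript came to 472 counts in lymphoma and 1 in doubly activated libraries. Their ratio was 373 (95% exact interval 66.6 to 14759, counting error only), with adjusted p = 0.027 in the transcript fit. The main transcript itself did not pass in that comparison (0.22 ± 0.13, adjusted p = 0.33). Of 12 annotated Rbpj transcripts only 3 are listed, and the annotated gene begins further upstream, at 53466152. The split among the 3 is an estimate whose uncertainty is not analysed here, so the start used in lymphoma is not settled.

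**Figure D5:**
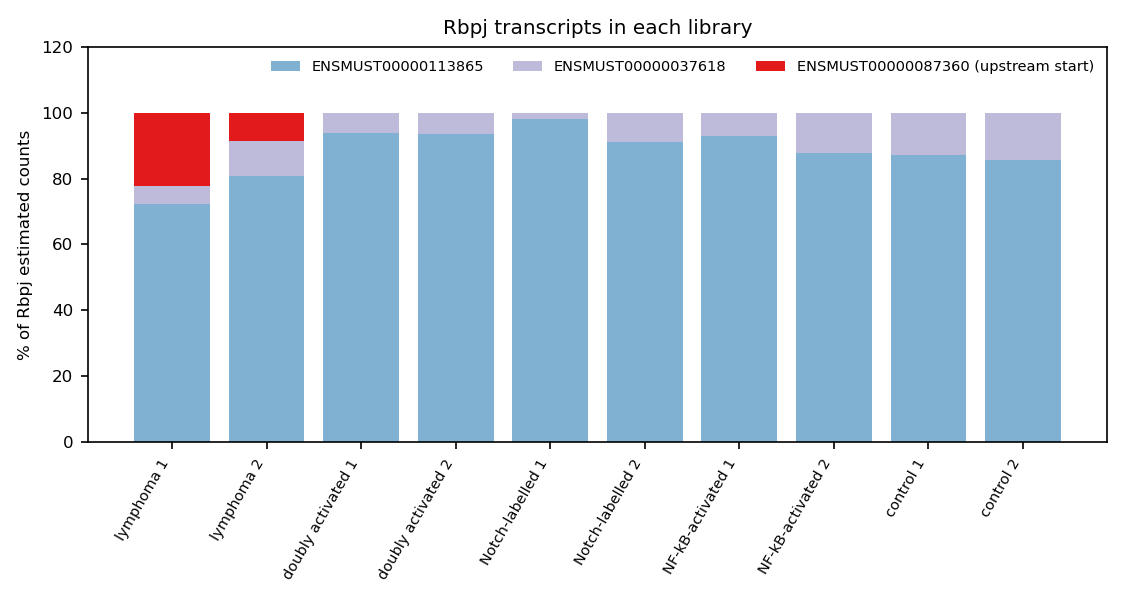
Share of Rbpj estimated counts (y axis, percent) given to each of the 3 listed transcripts in the 10 libraries, stacked. The upstream-start transcript ENSMUST00000087360 is visible in the 2 lymphoma libraries, at 22.3% and 8.51%, and was under 0.1% in the other 8.

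The difference with the Notch2 allele was compared between cells with and without the NIK allele, as doubly activated minus NF-kB-activated, less Notch-labelled minus control. Of the 10 genes, 1 was positive and 3 negative in this test, where 23.9% of all genes were positive and 25.6% negative, 49.5% in all. Notch2 had 1.15 ± 0.12 (adjusted p = 8.5e-06), Notch1 -1.65 ± 0.14 (adjusted p = 2.1e-06), Rbpj -0.56 ± 0.15 (adjusted p = 0.0084) and Mib1 -0.40 ± 0.14 (adjusted p = 0.032). The Notch1 call was lost on the authors' TPM with limma (-1.12, adjusted p = 0.262). In the edgeR fit over transcripts the main Notch1 transcript had -1.86 ± 0.15 (adjusted p = 0.00082). The Rbpj call was lost without NF-kB-activated replicate 2 (0.0565) and the Mib1 call when any 1 of 6 libraries was left out: control replicate 1 (0.108), doubly activated replicate 2 (0.146), NF-kB-activated replicate 1 (0.0948) or 2 (0.102), and Notch-labelled replicate 1 (0.0920) or 2 (0.0732). The test includes the Notch-labelled libraries, in which the labelled cell type and the fibroblast and mural markers differ from the other groups, and their part in it cannot be told apart from that of the allele.

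The rest of the pathway was read from 50 further genes, of which 48 passed the filter on low counts, a list chosen with earlier results of these data known. In lymphoma against doubly activated cells 12 rose and 16 fell, where 51.3% of all genes tested were called. In doubly activated cells 22 rose and 13 fell against Notch-labelled cells (64.2% of all genes), 5 rose and 4 fell against NF-kB-activated cells (13.9%), and 9 rose and 6 fell against control (19.8%). Notch-labelled cells had 16 higher and 18 lower than control (63.7% of all genes), and NF-kB-activated cells 7 higher and 6 lower (15.3%). The ligand Jag1 had 16.3 and 22.2 CPM in lymphoma, 0.947 and 0.589 CPM in doubly activated, 28.1 and 26.1 CPM in Notch-labelled, 0.472 and 0.419 CPM in NF-kB-activated and 0 and 0.163 CPM in control libraries. Its ratio of Notch-labelled to control libraries was 313 (95% exact interval of the counts 107 to 1521), with adjusted p = 1.6e-08, and it rose in lymphoma against doubly activated cells (4.62 ± 0.33, adjusted p = 2.2e-07). Jag1 and Notch3 were thus high in the same 4 libraries. Cd8b1 was also high in them, at 31.5 CPM or more against 3.63 CPM or less in the others. Of other T cell markers, Cd3d, Cd3e, Cd3g and Cd4 had their lowest group mean in lymphoma libraries. In Notch-labelled libraries Cd3e was instead higher than in all others, as given above. The part of other cells in Jag1 was not tested.

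Other genes of the list went different ways. The ligand Dll1 rose in NF-kB-activated cells against control, at 9.85 and 10.9 CPM against 2.15 and 3.48 CPM (1.87 ± 0.36, adjusted p = 0.0033), and was lower in doubly activated than in NF-kB-activated cells (-2.31 ± 0.37, adjusted p = 0.0016). The neutrophil markers given above were also higher in NF-kB-activated than in control libraries, and their part in this was not tested. Psen2, a catalytic subunit of gamma-secretase, had 81.5 and 74.1 CPM in doubly activated and 26.9 and 24.0 CPM in Notch-labelled libraries (1.61 ± 0.10, adjusted p = 3.8e-08). Lymphoma libraries were also low for Psen2, at 28.2 and 27.7 CPM. Neurl3, a ubiquitin ligase of the neuralized family, had 6.85 and 7.77 CPM in lymphoma and 83.1 and 72.5 CPM in doubly activated libraries (-3.41 ± 0.16, adjusted p = 2.1e-08). Notch-labelled libraries were also low for Neurl3, at 5.85 and 5.93 CPM, and control libraries had 172 and 228 CPM. The ubiquitin ligase Nedd4 was at 27.3 and 32.4 CPM in lymphoma and 383 and 441 CPM in doubly activated libraries (-3.79 ± 0.28, adjusted p = 3.1e-05). Notch-labelled libraries were the highest for Nedd4, at 692 and 709 CPM, and control libraries had 184 and 104 CPM. It was higher in doubly activated cells than in control (1.52 ± 0.25, adjusted p = 0.0064), a call lost with only the 2 groups fitted (0.0601). Fbxw7, which marks the intracellular receptor for degradation, rose in NF-kB-activated cells against control (0.80 ± 0.10, adjusted p = 0.00021), and the coactivator Maml3 fell there (-1.86 ± 0.21, adjusted p = 8.0e-05), as did the repressor Hes5 (-1.41 ± 0.24, adjusted p = 0.0019). Hes5 was highest in Notch-labelled libraries, at 43.1 and 38.6 CPM. It had 15.5 and 13.2 CPM in control, 11.7 and 7.39 CPM in doubly activated and 8.05 and 5.23 CPM in lymphoma libraries. In lymphoma against doubly activated cells Numbl, related to the Notch inhibitor Numb, was higher (1.06 ± 0.25, adjusted p = 0.0035). Its mean was 5.58 CPM in lymphoma, 2.67 CPM in doubly activated and 10.8 CPM in Notch-labelled libraries. On the authors' TPM with limma the calls of Hes5 (adjusted p = 0.0558) and Numbl (0.582) were lost.

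Known targets of Notch were read by level. Heyl, a repressor of the Hey family, had 38.9 and 44.0 CPM in lymphoma, 23.3 and 25.6 CPM in doubly activated, 50.9 and 44.1 CPM in Notch-labelled, 2.94 and 2.15 CPM in NF-kB-activated and 0.430 and 0.381 CPM in control libraries. All 6 libraries with the Notch2 allele were above all 4 without it. The rise against control was 5.89 ± 0.23 in doubly activated cells (adjusted p = 9.8e-09), 6.85 ± 0.23 in Notch-labelled cells (adjusted p = 4.9e-10) and 2.63 ± 0.30 in NF-kB-activated cells (adjusted p = 8.9e-05), the last lost on TPM with limma (0.150). Dtx1, a Deltex ubiquitin ligase, had 971 and 868 CPM in lymphoma, 1347 and 1609.8 CPM in doubly activated, 1022 and 960.3 CPM in Notch-labelled, 857 and 669 CPM in NF-kB-activated and 719 and 681 CPM in control libraries, and rose against control in doubly activated (1.08 ± 0.12, adjusted p = 7.3e-05) and Notch-labelled cells (0.50 ± 0.12, adjusted p = 0.0033). Nrarp, a feedback inhibitor of the pathway, had 1.43 and 1.08 CPM in lymphoma, 1.67 and 1.70 CPM in doubly activated, 17.4 and 18.9 CPM in Notch-labelled, 4.40 and 5.60 CPM in NF-kB-activated and 4.80 and 7.89 CPM in control libraries. It was lower than control in doubly activated cells (-1.91 ± 0.31, adjusted p = 0.00082) and higher in Notch-labelled cells (1.51 ± 0.27, adjusted p = 0.00035). Hes1, a repressor of the Hes family, had 22.3 and 20.6 CPM in lymphoma, against 62.9 and 79.6 CPM in doubly activated libraries (-1.73 ± 0.19, adjusted p = 4.1e-05), and lay between 40.6 and 79.8 CPM in the other 6 libraries, where control replicates were 79.8 and 51.7 CPM. Its value in NF-kB-activated against control cells (-0.66 ± 0.18, adjusted p = 0.038) passed, but did not without control replicate 1 (-0.32, adjusted p = 0.147) or with any 1 NF-kB-activated, Notch-labelled or lymphoma library left out (adjusted p = 0.0621 to 0.175).

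Over the 10 libraries genes whose log2(CPM + 1) was most like that of Notch2, among 9831 genes with a mean of at least 5 CPM, included Tnk2 (r = 0.998), Il27ra (0.994), Asap1 (0.993) and Epb41l2 (0.992). Tnk2, which encodes a nonreceptor tyrosine kinase, averaged 57.6 CPM in lymphoma, 224 CPM in doubly activated, 96.4 CPM in Notch-labelled, 226 CPM in NF-kB-activated and 199 CPM in control libraries. These correlations are a description over 10 libraries that share 5 groups, and lymphoma and Notch-labelled libraries were the lowest for Tnk2 as for Notch2.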

How the data were processed

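RNA of sorted cells in 10 libraries (5 groups of 2) was read from 1 table per library. The authors deposited estimated counts per transcript, not normalized, and TPM, per the file headers; kallisto 0.44.0 and mouse build mm10 are named in the submitters' processing notes. Transcripts were matched to GENCODE M21, 86031 of 88198, with 1.09% to 1.38% of a library's counts unmatched and left out, and the estimated counts were rounded after summing over each gene. The sources used here do not give strandedness; genes of the annotation that overlap Notch1, Notch2 and Notch3 could share reads with them.

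Tests were made in edgeR 4.0.16 (R 4.3.3) as two-sided quasi-likelihood tests with robust fitting, TMM and filterByExpr (minimum count 10, total 15), on all 10 libraries with 5 residual degrees of freedom; adjusted p is Benjamini-Hochberg at 0.05, and SE is the log2 fold change over the root of F. Alternatives used DESeq2 1.42.0, limma 3.58.1 on log2(TPM + 1), other scalings, filters and libraries. The fit was tested on simulated data. Same-numbered libraries did not pair: their deviations correlated at r = -0.107 to 0.086 over 10 pairs of groups and 10376 genes. Replicate libraries differed by more than counting error in every group, with a chi-square over degrees of freedom of 4.31 to 20.3.

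The 10 genes and all lists were chosen with earlier results of these data known. Of the other pathway genes, the 2 largest called rises and falls per comparison at 5 CPM or more were eligible to be named, and 4 readouts are given by level. Sequences are from RefSeq, which has no window for Mfng and Mib1 in the table used. Folds against 1 to 3 counts are given as ratios with exact intervals, which cover counting error only. One gene chosen by the rule on likeness to Notch2 is not reported here.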

Additional observations from a re-analysis of the deposited data

Results flagged for a closer look

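The difference with the Notch2 allele was not the same with and without the NIK allele for 4 of the 10 genes, by the edgeR test of the difference itself. In the same test 49.5% of all genes were called, so the count shows nothing particular to the 10 genes. Notch2 had a difference of 1.15, Notch1 of -1.65, Rbpj of -0.56 and Mib1 of -0.40 on the log2 scale, taken as doubly activated minus NF-kB-activated, less Notch-labelled minus control. In the 4 groups Notch2 averaged 727.6 CPM in doubly activated, 281 CPM in Notch-labelled, 784 CPM in NF-kB-activated and 671 CPM in control libraries. The call of Notch1 was lost on the authors' TPM with limma (-1.12, adjusted p = 0.262), while its main transcript had -1.86 ± 0.15 in the edgeR fit over transcripts (adjusted p = 0.00082). The call of Rbpj was lost without NF-kB-activated replicate 2 and that of Mib1 without control replicate 1, doubly activated replicate 2, either NF-kB-activated library or either Notch-labelled library. The Notch-labelled libraries, which enter this test, also differ in labelled cell type and in fibroblast and mural markers.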

How the results depend on the processing

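With 2 libraries a group, precision is limited, and Notch3, Notch4 and lymphoma Lfng rest on few counts. Of the results for single genes under the alternatives, 2115 of 2270 kept direction and side of the threshold, 87 lost the call, 26 gained it and 42 changed sign; the cause was not tested. The main numbers of genes called were 2388 in NF-kB-activated, 9922 in Notch-labelled and 3090 in doubly activated cells against control, 2165 and 10002 in doubly activated against NF-kB-activated and Notch-labelled cells, 7988 in lymphoma against doubly activated cells and 7717 for the allele difference.

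With only the groups compared, 0 of the 10 genes were called in NF-kB-activated against control cells, 1984 genes and 1 of the 10 in doubly activated against control cells, and 1 of the 10 in doubly activated against NF-kB-activated cells. Leaving out both lymphoma libraries also called 1 of the 10 in the last comparison, Lfng in both settings. Scaling by library size alone called a different 1 of the 10 there, Adam10 (-0.30, adjusted p = 0.0418). The main fit called 15.3%, 19.8% and 13.9% of all genes in these comparisons, in the order given. On TPM with limma 1475 genes and 1 of the 10 were called in NF-kB-activated and 2059 and 1 in doubly activated cells against control, 1291 and 1 in doubly activated against NF-kB-activated cells, and 6900 genes and 4 of the 10 in lymphoma against doubly activated cells. Library size alone shifted the median of all genes by 0.11 in Notch-labelled against control cells, by -0.17 in doubly activated against Notch-labelled cells and by -0.17 in the allele difference. It also lowered the share of called genes that were higher to 41.7%, against 53.1%, in doubly activated against control cells, to 34.0%, against 47.6%, in doubly activated against NF-kB-activated cells, and to 38.1%, against 48.3%, in the allele difference.

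Signs that changed were of values that had not passed, except Adam10 in lymphoma against doubly activated cells. On TPM, log2 fold changes were 0.29 for Notch4 and 0.082 for Adam10 in NF-kB-activated against control cells, 0.15 for Hes1 in Notch-labelled against control cells, and -0.018 for Mfng, -0.073 for Mib1 and -0.0075 for Rbpj in doubly activated against control cells. They were -0.30 for Notch4 and -0.24 for Mfng in doubly activated against NF-kB-activated cells, -0.21 for Adam10 and -0.082 for Hes1 in doubly activated against Notch-labelled cells, -0.069 for Rfng and -0.16 for Adam10 in lymphoma against doubly activated cells, and -0.30 for Adam10 in the allele difference. With library size alone Mfng had -0.062 in doubly activated against NF-kB-activated cells, and Adam10 had -0.13 in doubly activated against Notch-labelled cells and -0.055 in the allele difference. In doubly activated against Notch-labelled cells Adam10 was at -0.0048 with RLE and -0.0065 with DESeq2. Without immunoglobulin and T cell receptor genes Rfng was at 0.019 in the allele difference.

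The replicate numbers did not pair the libraries. A replicate block called 2100 genes in NF-kB-activated against control cells and as many of the 10 genes as the main fit in each comparison. In it Notch4 was at 0.015 in doubly activated against control cells, and Hes1 lost its call in NF-kB-activated against control cells (adjusted p = 0.054). The crossed pairing of NF-kB-activated and control libraries, chosen after seeing the data as were leaving out both libraries of a group and summing Rbpj with its pseudogene, called 1830 genes and 2 of the 10.

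Leaving out each library in turn called 1435 to 2291 genes and 0 to 3 of the 10 in NF-kB-activated against control cells, 1624 to 3081 genes and 0 to 2 of the 10 in doubly activated against control cells, and 725 to 2800 genes and 0 to 1 of the 10 in doubly activated against NF-kB-activated cells. It called 8353 to 10014 genes and 5 to 8 of the 10 in Notch-labelled against control cells, and 6447 to 7821 genes and 2 to 4 of the 10 in the allele difference. In NF-kB-activated against control cells 1497 and 1435 genes were called without NF-kB-activated replicate 1 and 2. Without doubly activated replicate 2, 1624 were called in doubly activated against control and 725 in doubly activated against NF-kB-activated cells, and in that last comparison 1067 and 975 without NF-kB-activated replicate 1 and 2. Ranges that crossed 0, all of values that had not passed, were -0.67 to 0.36 for Notch4, -0.66 to 0.065 for Nrarp and -0.063 to 0.29 for Dtx1 in NF-kB-activated against control cells, -0.033 to 0.95 for Notch4 and -0.59 to 0.066 for Hes1 in Notch-labelled against control cells, and -0.0085 to 0.18 for Notch1, -0.47 to 0.54 for Notch4, -0.025 to 0.22 for Mib1 and -0.17 to 0.46 for Hes1 in doubly activated against control cells. They were -0.10 to 0.11 for Mfng and -0.23 to 0.015 for Mib1 in doubly activated against NF-kB-activated cells, -0.016 to 0.14 for Adam10 in doubly activated against Notch-labelled cells, and -0.77 to 0.23 for Notch4 and -0.090 to 0.11 for Rfng in the allele difference.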
